A study of Drosophila melanogaster with 27 samples.

Results

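The comparison described here sets embryos expressing Upf1-Nos, a chimera of the RNA helicase Upf1 and the RNA-binding repressor Nanos (Nos), against embryos expressing Nos alone. It asks how maternal mRNA levels differ when Upf1 is joined to Nos and the control already carries a transgene. The libraries were chosen by genotype and stage, and 6 of the 27 in the series belong here, 3 for Upf1-Nos and 3 for Nos. Both are *Drosophila melanogaster* embryos of nuclear cycle 9, and every library holds poly(A)-selected RNA of whole embryos. In both groups a UASp transgene was expressed in the mother under a maternal alpha-tubulin GAL4-VP16 driver and carried the *nos* 3′ UTR, so that both groups share the driver and the 3′ UTR. Embryos expressing Upf1 alone and embryos of the *w* strain without a transgene (wild type), 3 libraries each, are used where the effect of Upf1 needs a second reference. Embryos expressing Upf1-NosL7, a chimera whose Nos lacks part of its C-terminal tail, are also used, with 3 libraries. They enter the same statistical fit and are set beside Upf1-Nos for some genes. The paper reports that Nos with this deletion is not recruited with Pumilio to *hunchback* mRNA. Embryos were fixed, stained for DNA and sorted by hand at about this stage. The Upf1-Nos embryos were picked by approximate age because their nuclei were abnormally placed, and virtually none of them hatch, which limits how closely their stage can be matched to that of Nos embryos. The study calls the libraries of a group biological replicates. The labels do not say how their collections were separated, so p-values measure only the spread between these libraries.

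Maternal mRNA runs the first nuclear divisions of the fly embryo, before the zygotic genome is transcribed in earnest. Nos binds mRNA together with Pumilio (Pum), recruits further repressors such as Brat and the Ccr4-Not deadenylase, and is best known for silencing maternal *hunchback* (*hb*) in the posterior of the embryo. Upf1 is the central helicase of nonsense-mediated decay, which removes mRNA with premature stop codons, and mRNA to which Upf1 is brought artificially is degraded. Joining the pair was meant to turn binding by Nos into a loss of mRNA that sequencing can measure.

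The site that Nos and Pum recognise is called the Nanos response element (NRE). The repeated unit of an NRE that the study designed after *hb*, a gene at 3R:8690980-8697822 on the minus strand (annotation BDGP6.54), is shown because *hb* gave one of the deepest losses. Capitals mark the stretch of A or T followed by TGTA that the pair of proteins contacts, and the designed oligo holds 2 copies of the unit.
NRE unit: tcgtccaaAATTGTAtatattcgtagc

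Expected counts summed to between 14022879 and 14651409 in Upf1-Nos libraries and between 17929071 and 20720745 in Nos libraries. Levels are given in normalised CPM, counts scaled to a common library size after division by the library's scaling factor, with factors of 1.26 to 1.47 in Upf1-Nos libraries that follow the study's correction for oversampling. Over the 500 genes that differed most between 2 libraries, the root mean square log2 difference was 4.95 to 5.59 between the groups, 0.915 to 1.28 among Upf1-Nos libraries and 0.815 to 0.993 among Nos libraries. Replicates differed by more than counting noise (chi-square per degree of freedom 6.4 to 49.4), so each library was counted as its own sample. Markers of follicle cells (19 genes) summed to 0.143 to 0.625 CPM in Upf1-Nos libraries and 0.112 to 0.241 CPM in Nos libraries. Markers of differentiated tissues (15 genes) summed to 0.208 to 0.642 CPM in Upf1-Nos libraries and 0.112 to 1.32 CPM in Nos libraries. Of the follicle cell markers, 14 to 17 had no count in an Upf1-Nos library and 16 to 17 in a Nos library, and no gene of either list passed the filter on low counts.

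The *white* gene (*w*), the eye-colour gene that transgenes carry as a marker and that is mutant in the wild-type strain used here, had 727, 505 and 641 normalised CPM in Upf1-Nos libraries, against 604, 570 and 601 in Nos libraries, while the wild-type libraries averaged 1.40 ± 0.107 (SD, n = 3). Both groups were thus far above the strain without a transgene, and they overlapped with each other (log2 fold change 0.08, SE 0.160, adjusted p = 0.695, edgeR quasi-likelihood test). *Upf1* (X:11899996-11905371) had 28.6, 15.4 and 23.2 normalised CPM in Upf1-Nos libraries and 54.4, 60.4 and 58.2 in Nos libraries, a log2 fold change of −1.37 (SE 0.263, adjusted p = 3.02e-04) that fell short of the fold without the correction for oversampling (−0.82). In Upf1 embryos the same gene averaged 573 normalised CPM. *nos* (3R:19157238-19160202) had 56.4, 53.6 and 49.1 normalised CPM in Upf1-Nos libraries and 379, 364 and 379.65 in Nos libraries, a fall of 2.82 on the log2 scale (SE 0.113, adjusted p = 1.25e-11), and the Nos libraries themselves did not differ detectably from wild type (log2 fold change 0.08, adjusted p = 0.620). Nos against wild type called 197 genes lower (2.87%) and 187 higher (2.73%). The levels of *nos* and *Upf1* therefore do not check the labels of these 6 libraries, and which copies of each gene, endogenous or transgenic, the counts came from cannot be told apart.

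A large share of the maternal transcriptome was lower in Upf1-Nos embryos than in Nos embryos. With the study's correction, a small share was higher. Of 6857 genes tested, 2730 (39.8%) were lower in Upf1-Nos and 248 (3.62%) higher at an adjusted p below 0.05 (Benjamini-Hochberg) and a fold change above 2, the rule for every call below. The losses were deep, since 1854 genes fell more than 4-fold and 680 more than 16-fold, whereas 45 genes rose more than 4-fold. The groups did not overlap for 2728 of the 2730 genes called lower, beside 61.7% of all genes tested, and for 245 of the 248 called higher, beside 14.2%. The genes called lower took 8% to 9.32% of the counts of each Upf1-Nos library and 32.2% to 32.9% of each Nos library. The median log2 fold change was −0.51 over all genes and −0.07 over the 3879 genes not called. Each library holds RNA of whole embryos, so levels in parts of the embryo, or in single embryos, cannot be told apart.

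**Figure D1:**
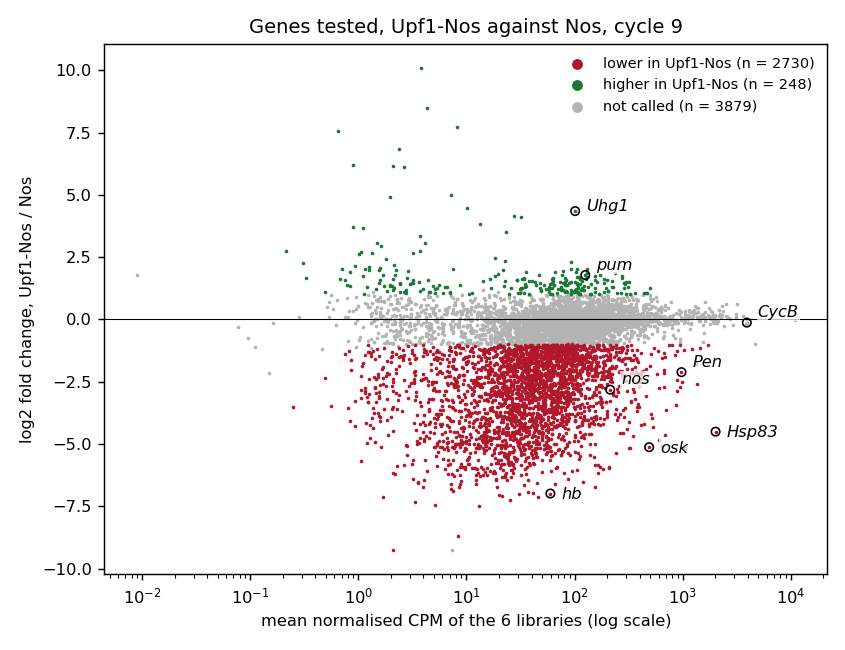
Log2 fold change of each gene tested, Upf1-Nos over Nos, against its mean level in the 6 libraries (normalised CPM, log scale). Red points are the 2730 genes called lower, green points the 248 called higher and grey points the 3879 not called, and circles mark 8 genes described in the text.

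The number of higher genes depended on the scaling. Without the correction for oversampling, by TMM factors alone, 2190 genes were lower and 705 higher, and the median of all genes moved to 0.06, so that the share of higher genes among the calls was 24.4%, against 8.33% with the correction. The genes used for the correction were chosen by the study on these samples, and cytosolic ribosomal protein genes make up most of them. The 20 correction genes had a median log2 fold change of 0.13 with the correction and 0.71 without it.

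Of the mRNAs reported or proposed as targets of Nos with Pum, 4 of 7 tested were lower (57.1%, beside 39.8% of all genes). None was higher, and the median log2 fold change was −1.37. Without the correction 3 were lower and none higher. The paper states that binding of Nos to *mei-P26* or *brat* mRNA has not been shown. *hb*, the gap gene transcription factor that Nos represses, had 1.03, 0.872 and 0.889 normalised CPM in Upf1-Nos libraries, against 119, 121 and 116 in Nos libraries. The Nos libraries were within the range of the wild-type libraries, 100.5 to 156, and every Upf1-Nos library was far below them. The log2 fold change was −6.99 (SE 0.226, adjusted p = 2.98e-12). *bicoid* (*bcd*), the anterior determinant, had 8.55, 4.21 and 6.64 normalised CPM in Upf1-Nos libraries and 307, 309 and 282 in Nos libraries (log2 fold change −5.53, SE 0.231, adjusted p = 1.74e-11). *Pen*, which encodes an importin-alpha, was lower by less, with 419, 278 and 402 normalised CPM in Upf1-Nos libraries and 1585, 1637 and 1534 in Nos libraries (log2 fold change −2.11, SE 0.135, adjusted p = 1.44e-09). *mei-P26*, a growth regulator of the same family as Brat, averaged 50.4 ± 13.8 normalised CPM in Upf1-Nos and 130.3 ± 28.7 in Nos (SD, n = 3 each; log2 fold change −1.37, adjusted p = 6.44e-04).

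*Cyclin B* (*CycB*), whose mRNA Nos keeps silent in the germline precursors, did not pass the test. It had 4423, 3071 and 3763 normalised CPM in Upf1-Nos libraries and 3955, 4305 and 4034 in Nos libraries, and the groups overlapped (log2 fold change −0.13, SE 0.168, adjusted p = 0.532). Under scaling without the correction its sign turned, to 0.43 (adjusted p = 0.017). *brat*, which encodes the Brat cofactor, averaged 174 ± 42.5 normalised CPM in Upf1-Nos and 286 ± 14.2 in Nos (SD, n = 3 each), a log2 fold change of −0.72 that passed the adjusted p (0.0239) but not the fold. *hid*, a cell death gene, averaged 4.86 ± 1.55 normalised CPM in Upf1-Nos and 4.44 ± 0.788 in Nos (adjusted p = 0.657).

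**Figure D2:**
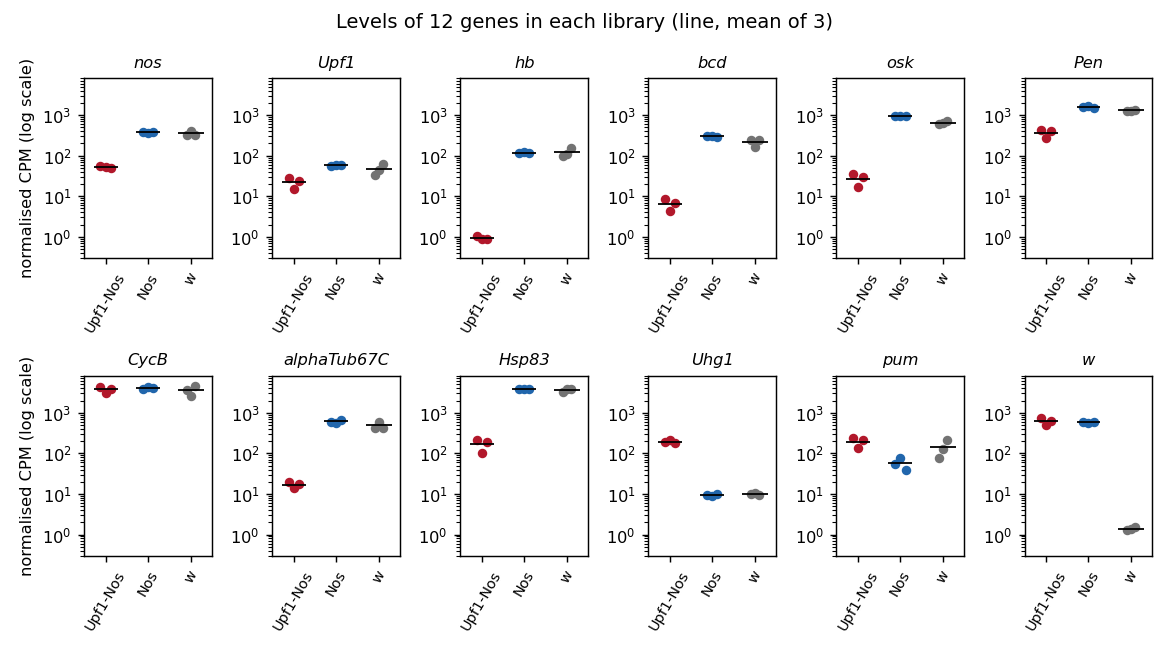
Normalised CPM (log scale) of 12 genes in each of 3 Upf1-Nos, 3 Nos and 3 wild-type (w) libraries, with a line at the mean of each group. *hb*, *bcd*, *osk* and *Hsp83* in Upf1-Nos lie below all Nos and wild-type libraries, *Uhg1* lies above them, and *w* separates both transgenic groups from wild type.

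Of 21 mRNAs of the germ plasm, the posterior cytoplasm that specifies the germline, 16 were lower (76.2%, beside 39.8% of all genes) and none higher, with a median log2 fold change of −2.42. Without the correction 13 were lower and 1 higher. *oskar* (*osk*), which organises the germ plasm, had 34.5, 16.7 and 30.6 normalised CPM in Upf1-Nos libraries, against 958, 941 and 960 in Nos libraries (log2 fold change −5.13, SE 0.216, adjusted p = 1.83e-11). Every Nos library lay far above every Upf1-Nos library. *vas*, a germline RNA helicase, averaged 10.9 ± 2.63 normalised CPM in Upf1-Nos and 261 ± 2.86 in Nos (SD, n = 3 each), and *pgc*, which holds back transcription in germ cells, averaged 41.6 ± 2.79 in Upf1-Nos and 518 ± 21.8 in Nos. At the other end *stau*, which encodes an RNA-binding protein of *osk* and *bcd* transport, averaged 187 ± 44.6 normalised CPM in Upf1-Nos and 114 ± 14.9 in Nos, a log2 fold change of 0.72 with an adjusted p of 0.0219, below the fold that counts as a call.

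Genes that set up the body axes divided. Of 20 tested, 11 were lower (55%, beside 39.8% of all genes) and 1 was higher. Besides *hb*, *bcd*, *osk* and *nos*, the lower ones included *dl* (log2 fold change −4.69), the dorsal morphogen, and *exu* (−3.90), which is needed to localise *bcd* mRNA. The higher one was *Tl*, which encodes the Toll receptor, with 864, 534 and 711 normalised CPM in Upf1-Nos libraries and 285, 345 and 256 in Nos libraries (log2 fold change 1.25, SE 0.287, adjusted p = 0.00132). *Tl* was also the most abundant of all genes called higher, and it averaged 596 normalised CPM in Upf1 embryos and 329 in wild type. Of 9 activators of the zygotic genome tested, 3 were lower (33.3%, beside 39.8% of all genes) and 1 higher. The lower ones were *hb*, *bcd* and *dl*. The higher one was *zld*, which encodes the pioneer factor Zelda, with 192, 104 and 166 normalised CPM in Upf1-Nos libraries and 63.2, 82.3 and 44.7 in Nos libraries (log2 fold change 1.28, SE 0.370, adjusted p = 0.00699). The *zld* call was lost when every library was scaled to its ribosomal protein genes (log2 fold change 1.14, adjusted p = 0.0656). Wild type averaged 117 normalised CPM of *zld*. Neither Upf1-Nos (log2 fold change 0.39, adjusted p = 0.359) nor Nos (−0.89, adjusted p = 0.108) passed against it (edgeR).

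Of 28 genes of Nos cofactors and deadenylation tested, 11 were lower (39.3%, beside 39.8% of all genes) and 2 higher, with a median log2 fold change of −0.50, which turned to 0.06 without the correction, with 7 lower and 6 higher. *pum*, the partner of Nos in binding RNA, had 236, 135 and 214 normalised CPM in Upf1-Nos libraries and 54.5, 77.1 and 38 in Nos libraries (log2 fold change 1.78, SE 0.381, adjusted p = 7.51e-04). The wild-type libraries had 78.0, 131 and 212 normalised CPM of *pum*, a wide spread. Their mean, 140.4, lay above all 3 Nos libraries and inside the range of Upf1-Nos (Nos minus wild type −1.31, adjusted p = 0.0263). *Not1*, the scaffold of the Ccr4-Not complex, was the other higher gene, with a mean of 426 ± 145 normalised CPM in Upf1-Nos and 128 ± 39.9 in Nos (log2 fold change 1.73, adjusted p = 0.00379). Other subunits of the same complex were lower: *Not11* averaged 0.310 ± 0.0945 normalised CPM in Upf1-Nos and 10.4 ± 0.299 in Nos (log2 fold change −5.03, adjusted p = 1.17e-10). *twin*, which encodes a catalytic deadenylase of the complex, averaged 77.1 ± 22.9 in Upf1-Nos and 336 ± 15.6 in Nos (log2 fold change −2.12, adjusted p = 1.66e-07).

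Among 14 genes of nonsense-mediated decay and the exon junction complex, 4 were lower (28.6%, below the 39.8% of all genes) and none higher. Without the correction, 3 were lower and 2 higher. *Clbn*, which encodes a factor of ribosome-associated quality control, gave the lowest value, with 11.2 ± 3.54 normalised CPM in Upf1-Nos and 112 ± 6.24 in Nos (log2 fold change −3.33, adjusted p = 8.77e-10). *Upf2*, the partner of Upf1, averaged 48.2 ± 10.6 in Upf1-Nos and 32.9 ± 3.26 in Nos and did not pass (log2 fold change 0.55, adjusted p = 0.0646). Of 8 RNAs known to be removed by nonsense-mediated decay, 5 were higher (62.5%, beside 3.62% of all genes) and none was called lower, with a median log2 fold change of 2.70, and all 5 are host genes whose introns encode small nucleolar RNAs. *Uhg1* had 189.95, 209.5 and 180.2 normalised CPM in Upf1-Nos libraries, against 9.26, 9.07 and 10.1 in Nos libraries (log2 fold change 4.35, SE 0.175, adjusted p = 1.34e-11). Its mean was 294 normalised CPM in embryos expressing Upf1-NosL7, the chimera with a mutant form of Nos, 8.53 in Upf1 embryos and 10.1 in wild type. *Uhg2* (log2 fold change 4.11), *Uhg5* (4.49), *Uhg8* (3.85) and *Uhg4* (1.54) were higher as well. In Upf1-NosL7 they averaged 63.9, 25.3, 38.6 and 99.5 normalised CPM, each above its mean in Upf1-Nos. *Uhg5* averaged 0.867 normalised CPM in Nos and 4.31 in wild type. Its Nos minus wild type value was −2.31 (adjusted p = 1.73e-05) and its Upf1-Nos minus wild type value 2.17 (adjusted p = 2.11e-07, edgeR). For *Uhg2* these values were 0.86 (adjusted p = 0.00836) and 4.97 (adjusted p = 1.20e-11). *Uhg3*, the remaining host gene, averaged 18.3 ± 1.52 normalised CPM in Upf1-Nos and 17.6 ± 2.51 in Nos (adjusted p = 0.765), and *Oda*, an antizyme gene, averaged 684 ± 23.2 in Upf1-Nos and 647 ± 11.4 in Nos (adjusted p = 0.582). *tra*, a sex determination gene, averaged 15.1 ± 1.47 in Upf1-Nos and 19.7 ± 1.24 in Nos, with an adjusted p of 0.02 (edgeR) but short of the fold (log2 fold change −0.39).

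Of 42 genes of origin licensing and the replisome tested, 29 were lower (69%, beside 39.8% of all genes) and 1 higher, with a median log2 fold change of −2.41. *PolD1*, which encodes the catalytic subunit of polymerase delta, had 0.703, 0.388 and 0.732 normalised CPM in Upf1-Nos libraries, against 70.7, 71.2 and 79.0 in Nos libraries (log2 fold change −6.92, SE 0.241, adjusted p = 4.76e-12). Within the list, all 6 subunits of the origin recognition complex, all 7 polymerase and primase subunits tested and all 3 of replication protein A were lower, as were 4 of the 6 subunits of the Mcm2 to Mcm7 helicase, 3 of 4 clamp loader subunits and 1 of 4 GINS subunits. These subdivisions of the list were made after the values were seen. *PCNA*, the sliding clamp, averaged 335 ± 22.4 normalised CPM in Upf1-Nos and 546 ± 21.5 in Nos, a log2 fold change of −0.70 that passed the adjusted p (1.41e-05) but not the fold. *chif*, which encodes the activator of the kinase Cdc7, was the higher gene, with 335, 202 and 289 normalised CPM in Upf1-Nos libraries and 93.1, 128 and 78.9 in Nos libraries (log2 fold change 1.46, SE 0.349, adjusted p = 0.00181). Its wild-type mean was 162 normalised CPM. Neither Upf1-Nos (log2 fold change 0.77, adjusted p = 0.0612) nor Nos (−0.69, adjusted p = 0.175) passed against wild type (edgeR). Of 79 replication and repair genes that the study lists, 78 were lower, but the study chose them on these samples, so the count is not independent evidence. *Xrcc2*, a recombination gene of that list, gave the largest fold of all genes above 10 normalised CPM: 2 counts in all in Upf1-Nos libraries and 979 in Nos libraries (log2 fold change −8.67, SE 0.396). The exception, *Blm*, a DNA helicase gene, averaged 39.9 ± 12.2 normalised CPM in Upf1-Nos and 77.6 ± 10.1 in Nos (log2 fold change −0.96, adjusted p = 0.00787), just short of the fold.

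Of 37 regulators of the cell cycle tested, 17 were lower (45.9%, beside 39.8% of all genes) and none higher, with a median log2 fold change of −0.81 that moved to −0.23 without the correction. *cort*, an activator of the anaphase-promoting complex in female meiosis, averaged 0.878 ± 0.201 normalised CPM in Upf1-Nos and 28.5 ± 2.82 in Nos (log2 fold change −5.01, adjusted p = 1.57e-11). *mtrm*, an inhibitor of Polo kinase in the oocyte, averaged 42.2 ± 6.38 in Upf1-Nos and 789.6 ± 30.8 in Nos (log2 fold change −4.23), and *E2f2*, a repressor of replication genes, averaged 10.1 ± 1.5 in Upf1-Nos and 162 ± 3.19 in Nos. *CycB3*, a mitotic cyclin, averaged 695 ± 151 in Upf1-Nos and 514 ± 14.6 in Nos and did not pass (adjusted p = 0.0669). The centromeric histone gene *cid* was lower, with 1.08, 0.291 and 0.575 normalised CPM in Upf1-Nos libraries and 44.5, 37.0 and 47.6 in Nos libraries (log2 fold change −6.06, SE 0.332, adjusted p = 2.61e-10). *BigH1*, the embryonic linker histone, was also lower (log2 fold change −1.15), whereas the 4 other histone variant genes tested were not called.

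**Figure D3:**
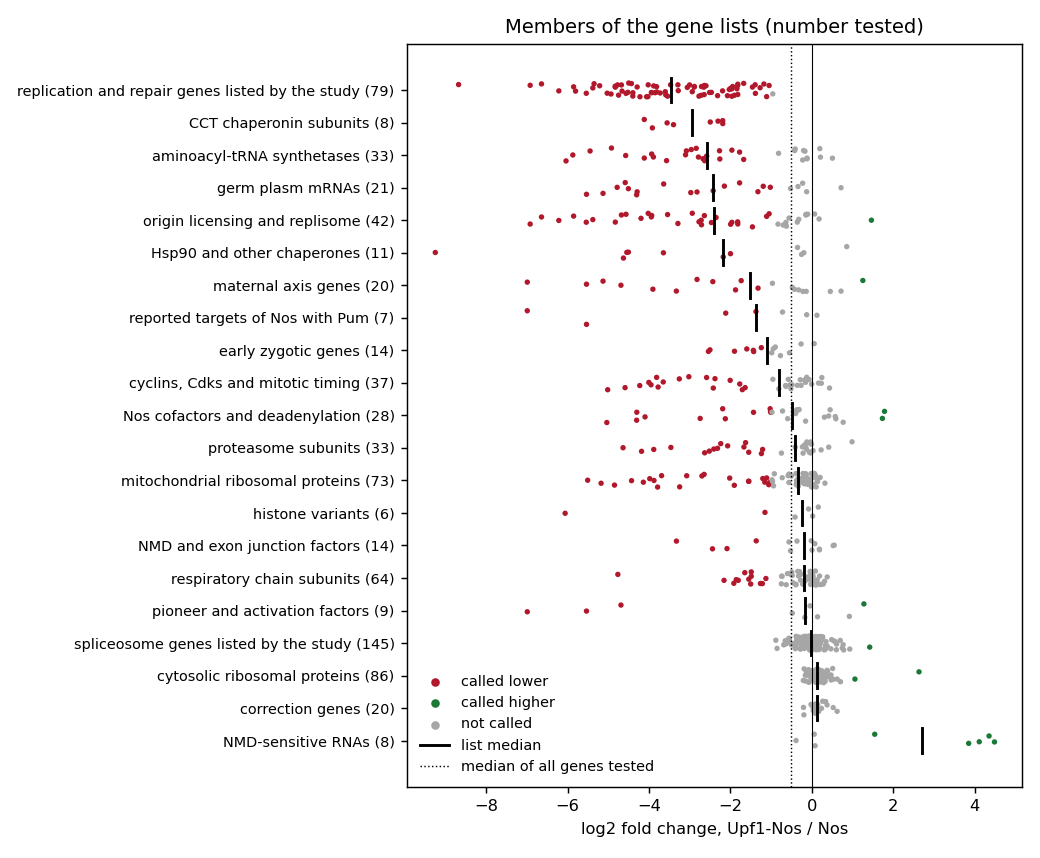
Log2 fold change, Upf1-Nos over Nos, of each tested member of 21 gene lists (number tested in parentheses), with a bar at each list's median and a dotted line at the median of all genes tested, −0.51. All 8 chaperonin subunits lie left of −2, the spliceosome and ribosomal protein genes cluster around 0, and 5 of the 8 RNAs sensitive to nonsense-mediated decay lie right of 1.

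The proteasome degrades ubiquitin-tagged proteins. Of its 19 regulatory particle genes tested, 15 were lower (median log2 fold change −2.07), and of its 14 core particle genes none was called in either direction (log2 fold changes from −0.41 to 0.41), a division made after the values were seen. Over all 33 genes, 15 were lower (45.5%, beside 39.8% of all genes) and none higher. Their median was −0.41, and without the correction it turned to 0.17, with 12 lower and 2 higher. *Rpn11*, the deubiquitinase of the regulatory particle, had 10.4, 6.83 and 10.9 normalised CPM in Upf1-Nos libraries, against 229.6, 219 and 249 in Nos libraries (log2 fold change −4.64, SE 0.172, adjusted p = 6.93e-12). *Prosbeta6*, a core subunit, had 469.6, 466 and 469 in Upf1-Nos libraries and 469, 462 and 495 in Nos libraries, which overlap. The 4 regulatory genes not called were *Rpn6*, *Rpn12*, *Rpt4* and *Rpt3R*. The last is a paralogue of *Rpt3*, at 12.2 ± 0.959 normalised CPM in Upf1-Nos and 6.13 ± 0.0869 in Nos (log2 fold change 0.99, adjusted p = 2.86e-05), just short of the fold.

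**Figure D4:**
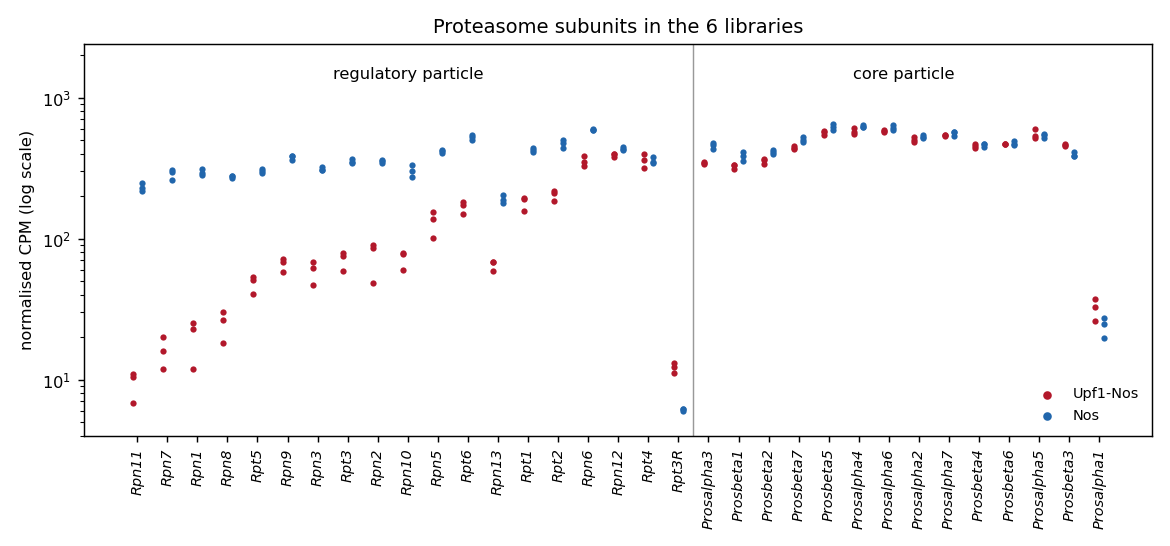
Normalised CPM (log scale) of 33 proteasome genes in each of the 3 Upf1-Nos and 3 Nos libraries. On the left 15 of 19 regulatory particle genes are lower in Upf1-Nos, and on the right the libraries of both groups lie close together for the 14 core particle genes.

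All 8 subunits of the CCT chaperonin, which folds actin and tubulin, were lower, from *CCT2* (35.1 ± 5.50 normalised CPM in Upf1-Nos and 608 ± 43.7 in Nos, log2 fold change −4.11, adjusted p = 5.61e-12) to *CCT3* (137 ± 22.2 in Upf1-Nos and 623 ± 21.4 in Nos, log2 fold change −2.19, adjusted p = 1.00e-10). *Hsp83*, the fly Hsp90 gene, was the most abundant of all genes called lower, with 215, 99.9 and 195 normalised CPM in Upf1-Nos libraries and 3811, 3902 and 3874 in Nos libraries (log2 fold change −4.50, SE 0.235, adjusted p = 1.49e-10). In all, 7 of 11 chaperone genes were lower (63.6%, beside 39.8% of all genes). *Hsp70Aa*, of a family of near-identical copies whose reads are uncertain, had no count in Upf1-Nos libraries and 241 in Nos libraries, at least 81.6-fold lower in Upf1-Nos when 3 counts over the group are taken as the floor. Of 33 aminoacyl-tRNA synthetases, which charge tRNA with amino acids, 22 were lower (66.7%, beside 39.8% of all genes). None was higher, and the median log2 fold change was −2.58. *AlaRS* averaged 3.16 ± 0.617 normalised CPM in Upf1-Nos and 207 ± 7.42 in Nos (log2 fold change −6.04, adjusted p = 2.58e-12). *IleRS* averaged 393 ± 65.4 in Upf1-Nos and 277 ± 15.1 in Nos, a log2 fold change of 0.51 below the fold that counts.

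Of 86 cytosolic ribosomal protein genes, which include most of the correction genes, 84 were not called and 2 were higher, *RpL22* and the paralogue *RpS19b*. Their median log2 fold change was 0.13, against 0.72 with 9 higher without the correction and −0.03 with 1 higher when the ratios were taken to Nos libraries. *RpL22* had 588, 561 and 632 normalised CPM in Upf1-Nos libraries and 291, 284 and 281 in Nos libraries (log2 fold change 1.06, SE 0.0942, adjusted p = 7.66e-08). Its wild-type mean, 465 normalised CPM, lay between the groups, and scaling to Nos libraries took it below the fold (log2 fold change 0.89). Mitochondrial ribosomal protein genes were lower in 22 of 73 (30.1%), which is below the 39.8% of all genes tested, with *mRpL46* lowest (0.994 ± 0.0932 normalised CPM in Upf1-Nos and 45.5 ± 4.46 in Nos). Respiratory chain genes were lower in 13 of 64 (20.3%), with *UQCR-C2* lowest (2.28 ± 0.279 in Upf1-Nos and 61.9 ± 8.32 in Nos). The medians of both lists, −0.34 and −0.19, turned to 0.25 and 0.39 without the correction, with 15 and 6 lower genes. *ATPsynbeta*, the catalytic subunit of ATP synthase, was among the 4 most abundant genes called lower, at 594 ± 60.8 normalised CPM in Upf1-Nos and 2079 ± 43.4 in Nos (log2 fold change −1.81, adjusted p = 1.05e-10). The others were *Hsp83*, *CtsK1*, a lysosomal protease gene (log2 fold change −2.58), and *tral*, which encodes an mRNA repressor that acts with Me31B and Cup (−1.02). The *tral* call was lost without Upf1-Nos replicate 2 (−0.88) and without the correction (−0.47).

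Of 145 spliceosome genes that the study lists, none was lower and 1 was higher. The study chose this list on these samples too. At an adjusted p below 0.05 regardless of fold, 27 were lower and 13 higher, and without the correction 12 were called higher at more than 2-fold. Their log2 fold changes ran from −0.88 for *CG15084* to 1.42 for *Isha*, which averaged 153 ± 33.3 normalised CPM in Upf1-Nos and 56.9 ± 9.46 in Nos (adjusted p = 7.14e-05). *Isha* averaged 108 normalised CPM in wild type. Upf1-Nos minus wild type was 0.50 (adjusted p = 0.0684) and Nos minus wild type −0.92 (adjusted p = 0.0137, edgeR). The maternal alpha-tubulin gene *alphaTub67C*, whose promoter drives the GAL4 in all these transgenic embryos, had 19.6, 13.8 and 17.7 normalised CPM in Upf1-Nos libraries and 609, 574 and 660 in Nos libraries (log2 fold change −5.17, SE 0.166, adjusted p = 2.88e-12).

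Of 37 early zygotic genes, 14 passed the filter on low counts, of which 7 were lower in Upf1-Nos (50%, beside 39.8% of all genes) and none higher, or 4 lower without the correction. *term* had 2.22, 2.57 and 1.57 normalised CPM in Upf1-Nos libraries and 7.18, 8.35 and 21.7 in Nos libraries (log2 fold change −2.54, SE 0.446, adjusted p = 1.30e-04), and *halo*, a regulator of lipid droplet transport, had 3.14, 2.28 and 1.73 in Upf1-Nos libraries and 9.63, 8.97 and 21.9 in Nos libraries. Nos replicate 3 was the highest library for both. *term* averaged 2.67 normalised CPM in wild type. Nos minus wild type was 2.21 (adjusted p = 0.00269) and Upf1-Nos minus wild type −0.33 (adjusted p = 0.552, edgeR). Before scaling, *halo* had 5.07, 1.73 and 3.5 CPM in wild-type libraries and 3.96, 3.35 and 2.29 in Upf1-Nos libraries. Over the 14 genes tested, the median was 0.21 for Nos minus wild type and −0.59 for Upf1-Nos minus wild type. Over the whole list, summed levels were 185 to 260 CPM in Upf1-Nos libraries, 195 to 297 CPM in Nos libraries and 134 to 208.5 CPM in wild-type libraries. Of the 37 genes, 5 to 8 had no count in an Upf1-Nos library, 0 to 2 in a Nos library and 6 to 11 in a wild-type library. *slam*, which is needed for cellularisation and also supplied maternally, made up 126 to 207.5 CPM of these sums in Upf1-Nos libraries and 116 to 145 CPM in Nos libraries, and did not differ detectably (adjusted p = 0.852). The part of a difference in stage in the other results was not tested.

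The largest losses among genes above 10 normalised CPM, besides *Xrcc2*, were those of *SA1*, a cohesin subunit gene (log2 fold change −7.50), *CG13032* (−7.43), *CG17660* (−7.23), *CG4476* (−7.11) and *Hr96*, a nuclear receptor gene (−7.07). *CG13032* had 0.108, 0 and 0.0523 normalised CPM in Upf1-Nos libraries, 10.3, 9.16 and 10.8 in Nos libraries and a mean of 0.0936 in wild type. It was therefore higher in Nos than in either of the other groups. The largest rises were those of *Ada1-1* (log2 fold change 7.74), *l(2)03659* (5.01), *Uhg5*, *Uhg1*, *pst* (4.16) and *Uhg2*. *Ada1-1*, a subunit gene of the SAGA coactivator, had 16.6, 16.6 and 15.2 normalised CPM in Upf1-Nos libraries, 0.104, 0 and 0.110 in Nos libraries and a mean of 33.6 in wild type. *pst* averaged 52.1 ± 6.28 in Upf1-Nos, 2.91 ± 0.345 in Nos and 206 in wild type, and *l(2)03659* averaged 14.1 ± 3.18 in Upf1-Nos, 0.427 ± 0.145 in Nos and 26.7 in wild type. All 3 were thus lower in Nos than in wild type, and below wild type in Upf1-Nos as well. A transgene and the genetic background of its line cannot be told apart here.

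The 2730 lower genes had a median log2 fold change of −2.70 for Upf1-Nos against Nos, −2.59 for Upf1-Nos against wild type and 0.14 for Nos against wild type. The 248 higher genes had medians of 1.44, 0.72 and −0.71 for the same comparisons. The Nos libraries also served to choose both classes, so these medians are a description only. Besides *Tl* and *RpL22*, the abundant higher genes included *PlexA*, a semaphorin receptor gene (629 ± 84.7 normalised CPM in Upf1-Nos and 298 ± 61.2 in Nos, log2 fold change 1.08, adjusted p = 0.00303). Its call was lost without Upf1-Nos replicate 1 (0.97), without Nos replicate 3 (0.95) and when the correction ratios were taken to Nos libraries (0.91).

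The main isoform of a gene, the one with the highest TPM in Nos libraries, had a median length of 5187 nt for genes called higher, 1957 nt for genes called lower and 1733 nt for genes not called. Among 5 equal classes of genes by this length, 12.1% were higher in the class from 3327 nt up, against 1.39% to 1.61% in each other class, so that 165 of the 248 lay there. Libraries of 1 group also differed along length: the median deviation of that class from the group mean was 0.309, −0.451 and 0.144 (log2) in Upf1-Nos replicates 1, 2 and 3, and between −0.119 and 0.134 in Nos replicates. The count of higher genes in that class was 115 without Upf1-Nos replicate 1 and 214 without replicate 2, and 407 without the correction. The gene *pum*, whose tested isoforms are 6659 to 7473 nt long, is in that class. The part of this library trend in the result was not tested.

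**Figure D5:**
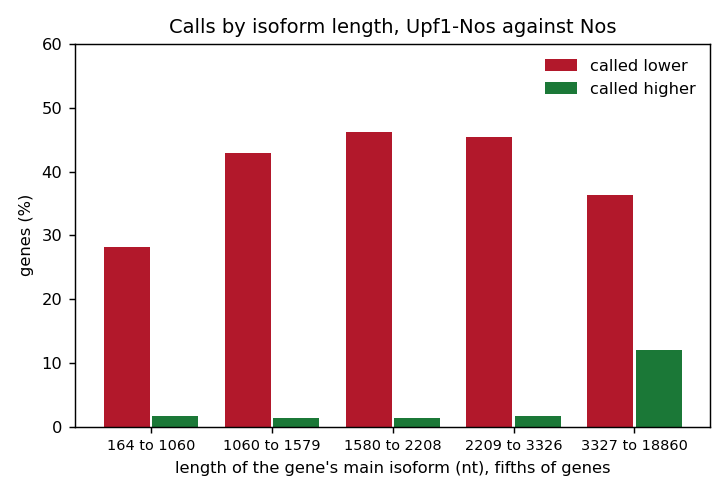
Percent of genes called lower (red) and higher (green) in Upf1-Nos against Nos in 5 equal classes of genes by the length of the main isoform (nt). Lower calls run from 28.2% to 46.2%, and higher calls reach 12.1% only in the class from 3327 nt.

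Lengths of 3′ UTRs, where Nos and Pum bind, hardly separated lower genes from the rest. The median was 241 nt over 2691 lower genes with an annotated 3′ UTR, 229 nt over 3775 genes not called and 619 nt over 224 higher genes. Across 5 equal classes of 3′ UTR length, the share of lower genes was between 35.9% and 44.3%, with the highest share in the middle class. By chromosome arm, 38.2% to 40.4% of genes on the arms of chromosomes 2 and 3 were lower and 43.0% of those on the X. On chromosome 4, the smallest, 10 of 60 genes (16.7%) were lower and 11 (18.3%) higher. *ATPsynbeta* and *PlexA* above lie on it.

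At the level of mRNA isoforms, 4184 of 12840 tested (32.6%) were lower and 524 (4.08%) higher, and without the correction 3439 were lower and 1310 higher. Both *hb* isoforms tested were lower: the isoform with a 3′ UTR of 389 nt (*hb-RB*) averaged 0.573 ± 0.253 normalised CPM in Upf1-Nos and 81.3 ± 7.21 in Nos, and the isoform with 898 nt (*hb-RA*) averaged 0.360 ± 0.335 in Upf1-Nos and 35.8 ± 6.02 in Nos. All 5 *bcd* isoforms and both *nos* isoforms were lower as well. In 638 genes every tested isoform, 2 or more, was lower, and in 45 genes 1 isoform was lower and another higher.

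Isoform usage, the share of each isoform within its gene, was called in 228 of 3249 genes (7.02%; adjusted p below 0.05, with an isoform that changed more than 2-fold relative to its gene). On simulated data this test missed nearly all of the smaller changes and some of the larger ones, and called some unaltered genes, so the count is a rough one. The 4 genes with the largest relative change were *exu*, *Hrb87F*, *Bacc* and *CkIIbeta*, and in each an isoform was listed at 0 in all 3 Nos libraries. Expected counts of isoforms are estimates that can fall to 0 where isoforms overlap, so the levels are given without a fold. *exu-RC*, with a 3′ UTR of 881 nt, had 19.9, 13.4 and 22 normalised CPM in Upf1-Nos libraries, and a mean of 0.712 in wild type, while *exu-RB*, with 248 nt, averaged 5.55 ± 1.45 in Upf1-Nos and 337 ± 20.1 in Nos. *exu-RD*, which also has a 3′ UTR of 881 nt, was lower, at 0.319 ± 0.365 in Upf1-Nos and 8.16 ± 1.52 in Nos (log2 fold change −4.66, adjusted p = 1.5e-04, edgeR). *CkIIbeta*, which encodes a subunit of casein kinase 2, had its isoform with a 3′ UTR of 2315 nt (*CkIIbeta-RB*) at 38.3 ± 1.86 in Upf1-Nos and 84.0 ± 1.83 in Nos (log2 fold change −1.13, adjusted p = 5.1e-06), whereas *CkIIbeta-RD*, with 278 nt, averaged 1.01 ± 0.424 in Upf1-Nos and 77.4 ± 0.995 in Nos. The *CkIIbeta* isoforms with a 3′ UTR of 278 nt or less all had lower fitted fold changes than the one with 2315 nt. Relative to the gene, *CkIIbeta-RF*, *CkIIbeta-RG* and *CkIIbeta-RJ* among them did not pass (adjusted p = 0.233, 0.0529 and 0.807, edgeR test of isoform usage). *CkIIbeta-RK*, with 896 nt, had 13.96, 6.41 and 10.9 normalised CPM in Upf1-Nos libraries and was listed at 0 in Nos libraries. For *Hrb87F*, an hnRNP gene, the isoform at 0 in Nos averaged 167 ± 34.0 in Upf1-Nos and 134.9 in wild type, and for *Bacc* it averaged 127 ± 5.34 in Upf1-Nos and 186 in wild type.

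The difference between Upf1-Nos and Nos was set against the difference between Upf1 and wild type, as an interaction in the same fit. Upf1-Nos is a fusion protein, so the interaction compares genotypes and not additions of the same protein. Upf1 against wild type also holds the driver and the marker, which Upf1-Nos and Nos share. For the marker gene *w* the interaction was −9.31 (SE 0.284, adjusted p = 1.02e-11, edgeR). Of 6857 genes, the interaction was called lower for 2825 (41.2%) and higher for 181 (2.64%), and without the correction for 2277 and 516. In Upf1 against wild type, 158 genes (2.30%) were lower and 118 (1.72%) higher. The median log2 fold change there was 0.06, beside −0.51 for Upf1-Nos against Nos. For *hb* the interaction was −7.36 (SE 0.273, adjusted p = 3.01e-11), the Upf1 mean being 159 normalised CPM and the wild-type mean 123. For *bcd* it was −5.76 and for *Pen* −2.15, and for *CycB* it did not pass (−0.46, adjusted p = 0.121). For *pum* the interaction was 1.34 (SE 0.525, adjusted p = 0.0416). Of the 5 host genes higher in Upf1-Nos, all had an interaction in the same direction, as for *Uhg1* with 4.60 (SE 0.237). *Tl*, *Not1*, *chif* and *zld* did not pass the interaction (0.40, 0.80, 0.84 and 0.57, adjusted p between 0.160 and 0.432), and their Upf1 means were above their wild-type means.

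The largest fitted interactions belonged to genes at or near 0 in wild type or Nos libraries, for which the fitted size is no bound. *CG30059* averaged 13.7 ± 2.12 normalised CPM in Upf1-Nos, 73.8 ± 0.743 in Nos and 31 in Upf1, with no count in wild type. *sordd2* averaged 42.0 ± 2.29 in Upf1-Nos, 95.8 ± 3.13 in Nos and 46.8 in Upf1, and *Syt4* 0.624 ± 0.225 in Upf1-Nos, 3.56 ± 0.160 in Nos and 5.54 in Upf1, both with no count in wild type. All 3 were present in every transgenic group named. In the other direction, *Ir76a* averaged 8.62 ± 1.33 in Upf1-Nos, 0.0159 in Nos, 5.47 in Upf1 and 16.2 in wild type. *His1:CG33861*, one of many near-identical histone copies whose reads are uncertain, had no count in Nos libraries and 437 in Upf1-Nos libraries, at least 147-fold higher when 3 counts over the group are the floor. Its wild-type mean was 19.9 normalised CPM. Over all 23 copies of *His1* in the files, the summed level was 68.6 ± 5.15 normalised CPM in Upf1-Nos and 46.9 ± 3.90 in Nos (SD, n = 3 each). The summed levels of the other families, given in normalised CPM as Upf1-Nos against Nos, were lower in Upf1-Nos on average for *His2A* (2.13 ± 0.124 against 5.56 ± 0.932), *His3* (0.519 ± 0.277 against 1.03 ± 0.0732) and *His4* (3.91 ± 0.869 against 5.57 ± 0.942), and higher for *His2B* at 1.63 ± 0.234 against 0.901 ± 0.141. These sums were not tested. Of 8 replication-dependent histone genes that passed the filter, 3 were higher (37.5%, beside 3.62% of all genes) and none lower. The 8 were 7 copies of *His1* and 1 of *His2B*, whose reads are uncertain in the same way. The libraries were poly(A)-selected, so these levels do not measure histone mRNA without a poly(A) tail. *spirit* had 1 count in Upf1-Nos libraries, none in Nos libraries and a mean of 4.96 normalised CPM in wild type, so its interaction rested on wild type, and it was lost without Upf1-Nos replicate 1.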

How the data were processed

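RNA-seq of 15 sorted libraries was analysed, from 5 genotypes with 3 libraries each (Upf1-Nos, Nos, Upf1, Upf1-NosL7 and *w*), while the unsorted libraries were not used here. The authors aligned reads with STAR 2.5.3a and obtained expected counts per gene and per isoform with RSEM 1.3.0 on BDGP6, and these were deposited without normalisation. TPM values, which RSEM scales by transcript length, were deposited as well and served only to pick the main isoform of a gene. Per the submitters' processing notes, R 4.2.1 and edgeR 3.40.2 were used.

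Expected counts were rounded to whole numbers. Features were kept with filterByExpr of edgeR (count minimum and total count minimum 30), and all 15 libraries entered 1 quasi-likelihood fit by genotype (edgeR 4.0.16, R 4.3.3, prior count 0.125). Scaling used TMM, except that the factors of Upf1-Nos libraries were the mean ratio of 20 genes listed by the study to their wild-type level. P-values were adjusted by Benjamini-Hochberg over all features tested. The SE given with a log2 fold change was derived from the test, as its absolute value divided by the square root of the F statistic. Isoform usage was tested with diffSpliceDGE. Scripts were tested on simulated data. Alternatives used limma 3.58.1 and DESeq2 1.42.0. Tables and figures used Python 3.11.15, pandas 2.3.3, numpy 2.4.6 and matplotlib 3.10.9.

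Correlations of residuals between same-numbered Upf1-Nos and Nos libraries were −0.0939, −0.367 and −0.214, so replicate numbers did not pair the libraries. Named genes are those expressed as proteins, *hb*, *bcd*, *Pen* and *CycB*, the 6 called genes with the largest change each way above 10 CPM, the 4 most abundant called genes each way, the extremes of each list, the 3 largest interactions each way and 4 genes for isoform usage, of which 1 abundant gene is not reported here. All other genes named, such as *w*, *vas*, *pgc*, *twin*, *Not1*, *PCNA* and further list members, were chosen after their values were seen. Libraries, gene lists and members were chosen with earlier results of these data known. Motif shares of 3′ UTRs were not computed, because no genome sequence of this build was used here. Coordinates are from the BDGP6.54 annotation, whereas counts were made on an earlier Ensembl annotation. The authors' own fold changes were not used.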

Additional observations from a re-analysis of the deposited data

Results flagged for a closer look

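By the interaction in the edgeR fit, Upf1-Nos against Nos differed from Upf1 against wild type for 2825 genes lower and 181 higher. This compares genotypes, and only Upf1 against wild type also holds the driver and the marker. Among the genes named at the outset, the interaction on the log2 scale was −3.05 for *nos*, −4.97 for *Upf1*, −7.36 for *hb*, −5.76 for *bcd* and −2.15 for *Pen*. For *Upf1* the value holds the rise of the gene in Upf1 embryos, where it averaged 573 normalised CPM, against 47.0 in wild type. No group of 3 libraries was tested for a library far from the rest.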

How the results depend on the processing

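Counts of lower genes stayed within 1.5 times of the reported ones under every alternative run, while counts of higher genes did not. Higher genes, isoforms and interactions numbered 705, 1310 and 516 with TMM factors alone and 714, 1203 and 554 with median-of-ratios factors. Scaling every library to its ribosomal protein genes gave 164 higher genes and 318 higher isoforms. With no filter on low counts there were 404 higher genes and 298 higher interactions. Higher genes, isoforms and interactions numbered 45, 171 and 86 above 4-fold and 688, 1027 and 329 at any fold, and 327 isoforms were higher at an adjusted p below 0.01. Isoform usage was called in 384 genes by diffSplice of limma. For lower genes, taking the longest 3′ UTR of each gene moved the median to 306 nt, and TMM factors alone moved it to 237 nt. Motif shares were not run.

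Leaving out 1 library at a time gave 2671 to 2838 lower and 190.0 to 315 higher genes, the fewest higher without Upf1-Nos replicate 1 and the most without replicate 2. It gave 3969 to 4282 lower and 358 to 613 higher isoforms, 2654 to 2927 lower and 171 to 254 higher interactions, and 176 to 227 genes for isoform usage. With the replicate block, which the labels' numbers allow but the residuals do not bear out as a pairing, 2738 genes were lower and 247 higher, 4185 isoforms lower and 487 higher, 2835 interactions lower and 175 higher, and 215 genes were called for usage.

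Of the tests of named genes, 1241 kept direction and call, 20 lost the call, 21 gained it and 26 turned sign, all for genes not called in the report. Signs turned with TMM and with median-of-ratios factors for *CycB* (0.43 and 0.44), *tra* (0.19 and 0.19), *RpL24-like* (0.38 and 0.37) and *sesB* (0.37 and 0.38). With correction ratios taken to Nos they turned for *hid* (−0.038), *slam* (−0.11), *w* (−0.088), *His4r* (−0.0089) and *His1:CG33855* (−0.082), and with ribosomal protein ratios for *hid* (−0.0063), *slam* (−0.065), *w* (−0.052) and *His1:CG33855* (−0.045). Leaving out 1 library gave ranges that crossed 0 for *hid* (−0.063 to 0.35), *slam* (−0.10 to 0.28), *w* (−0.053 to 0.20) and *His1:CG33855* (−0.18 to 0.61), and a range from 0 to 2.26 for *spirit*. The cause was not tested. Depth limits genes at a few counts, such as *spirit*.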
